A study of Caenorhabditis elegans and Caenorhabditis briggsae with 26 samples.

Results

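The 10 genes described here encode constitutive proteins of P granules and regulators of mRNA translation in the nematode germline. They are the DEAD-box helicase genes glh-1, glh-2 and glh-4, the granule scaffold genes pgl-1 and pgl-3, the translational regulators gld-1, gld-2 and gld-3, and the Pumilio-family repressors fbf-1 and fbf-2. They were chosen by sequence ID from the 21774 C. elegans gene IDs of the deposited expression table, and all 10 were found. Values of C. briggsae are given there against the C. elegans ortholog, for 13938 IDs in all and for 7 of these 10 genes. The genes glh-1, glh-2 and fbf-2 had no C. briggsae value.

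Poly(A)-selected RNA of whole animals was sequenced through the life cycle of Caenorhabditis briggsae (wild-type strain AF16) and Caenorhabditis elegans (wild-type strain N2), both kept at 20 °C in liquid medium with E. coli as food. Mixed embryos came from bleached adults, and larvae hatched without food, so that every later stage was timed from feeding. L1, L2, L3, early L4 (called L4 here), late L4 and pre-gravid young adult animals were collected 6, 20, 28, 41, 53 and 63 h after feeding in C. briggsae and 7, 20, 29, 41, 52 and 57 h after feeding in C. elegans. Either species had 3 embryo libraries and 3 L1 libraries from 2 cultures (A1 and A2 of culture A, and B of a repeat time course), 1 library of culture A for every later stage, and 2 libraries of a mixture of all stages.

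P granules are condensates of RNA and protein that sit at the nuclear pores of germ cells and are inherited by the germline lineage of the early embryo. PGL proteins form their scaffold, and GLH proteins, relatives of the Vasa helicase, are bound to them. In the adult gonad of C. elegans, FBF-1 and FBF-2 bind the 3' ends of mRNAs and hold germ cells in the stem cell state. GLD-1, and GLD-2 with its partner GLD-3, drive entry into meiosis by repressing some mRNAs and lengthening the poly(A) tails of others. Transcripts that the oocyte stores pass into the embryo, while a newly hatched larva has a single pair of primordial germ cells that divide only after feeding begins.

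Values are RPKM, read counts scaled to gene length and to the reads mapped per library, so that levels of different genes can be set side by side. Means and SDs are over cultures, with A1 and A2 averaged first. Sums of RPKM ran from 516091 to 667794 per library over 13938 IDs in C. briggsae and from 616331 to 814470 over 21774 IDs in C. elegans. The sums of the species are thus not over the same genes. In both species every embryo library had a lower sum than every L1 library. C. briggsae embryo libraries had 516091 to 535413, against 644958 to 667794 at L1. C. elegans embryo libraries had 616331 to 729739, against 758755 to 793786 at L1. Depth is not given, but the spacing of the lowest values put the C. elegans libraries at an estimated 21.5 to 27.7 M mapped reads for embryo library A1, L2 to young adults and the mixture, and at 6.34 to 9.21 M for embryo libraries A2 and B and the L1 libraries. On that estimate fbf-1 rested on 12.6, 15.2 and 21.9 reads in the C. elegans L1 libraries, and values near 1 RPKM are imprecise there. In whole animals a smaller number of germ cells and less RNA per germ cell cannot be told apart.

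The GLH helicase genes were lowest in mid-larval C. elegans and highest in young adults. The Vasa relative glh-1 (T21G5.3; chromosome I, 6854478 to 6857536, plus strand, in WBcel235) had 23.6, 22.1 and 22.2 RPKM in embryo libraries A1, A2 and B, 9.97, 9.35 and 12.0 RPKM in the L1 libraries, and then 5.50 in L2, 25.2 in L3, 10.6 in L4, 65.8 in late L4 and 214 RPKM in young adults. Embryo and L1 libraries did not overlap, and the young adult value exceeded that of 97.8% of all IDs. Its close paralog glh-2 (C55B7.1; chromosome I, 6513928 to 6517507, plus strand) had 10.7, 9.56 and 10.9 RPKM in embryos, then 1.49, 1.61 and 1.32 RPKM at L1, 1.21 in L2, 2.70 in L3, 0.924 in L4, 6.24 in late L4 and 75.0 RPKM in young adults. The level of glh-2 was thus more stage-bound than that of glh-1, with 81.1-fold against 38.9-fold between the highest and the lowest stage. The ratio of glh-1 to glh-2 within a library lay between 2.05 and 2.31 in embryos and at 2.85 in young adults, but between 4.56 and 11.5 in all libraries of L1 to late L4.

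The third helicase gene, glh-4 (T12F5.3; chromosome I, 3727027 to 3731179, plus strand), was scarce in every C. briggsae library. There it had 1.37, 2.29 and 1.11 RPKM in embryos, then 1.18, 1.16 and 1.65 RPKM at L1, 0.499 in L2, 0.529 in L3, 0.821 in L4, 0.862 in late L4 and 0.886 RPKM in young adults. In C. elegans it had 8.04, 8.95 and 10.7 RPKM in embryos, then 3.74, 3.92 and 3.90 RPKM at L1, 2.07 in L2, 4.50 in L3, 2.17 in L4, 9.46 in late L4 and 48.2 RPKM in young adults. The C. elegans course followed that of glh-1, while the C. briggsae libraries had no adult peak: the C. briggsae value was 0.0184 times the C. elegans value in young adults and 0.153 times in embryos. In young adults 20.8% of the 13938 C. briggsae IDs lay below glh-4, and at most 37.9% did at any stage. In C. elegans young adults 89.5% of all 21774 IDs lay below it, a larger set that includes IDs without C. briggsae values. How the authors assigned orthologs is not given in the sources used here, so a low level and an ortholog of another gene model cannot be told apart.

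**Figure D1:**
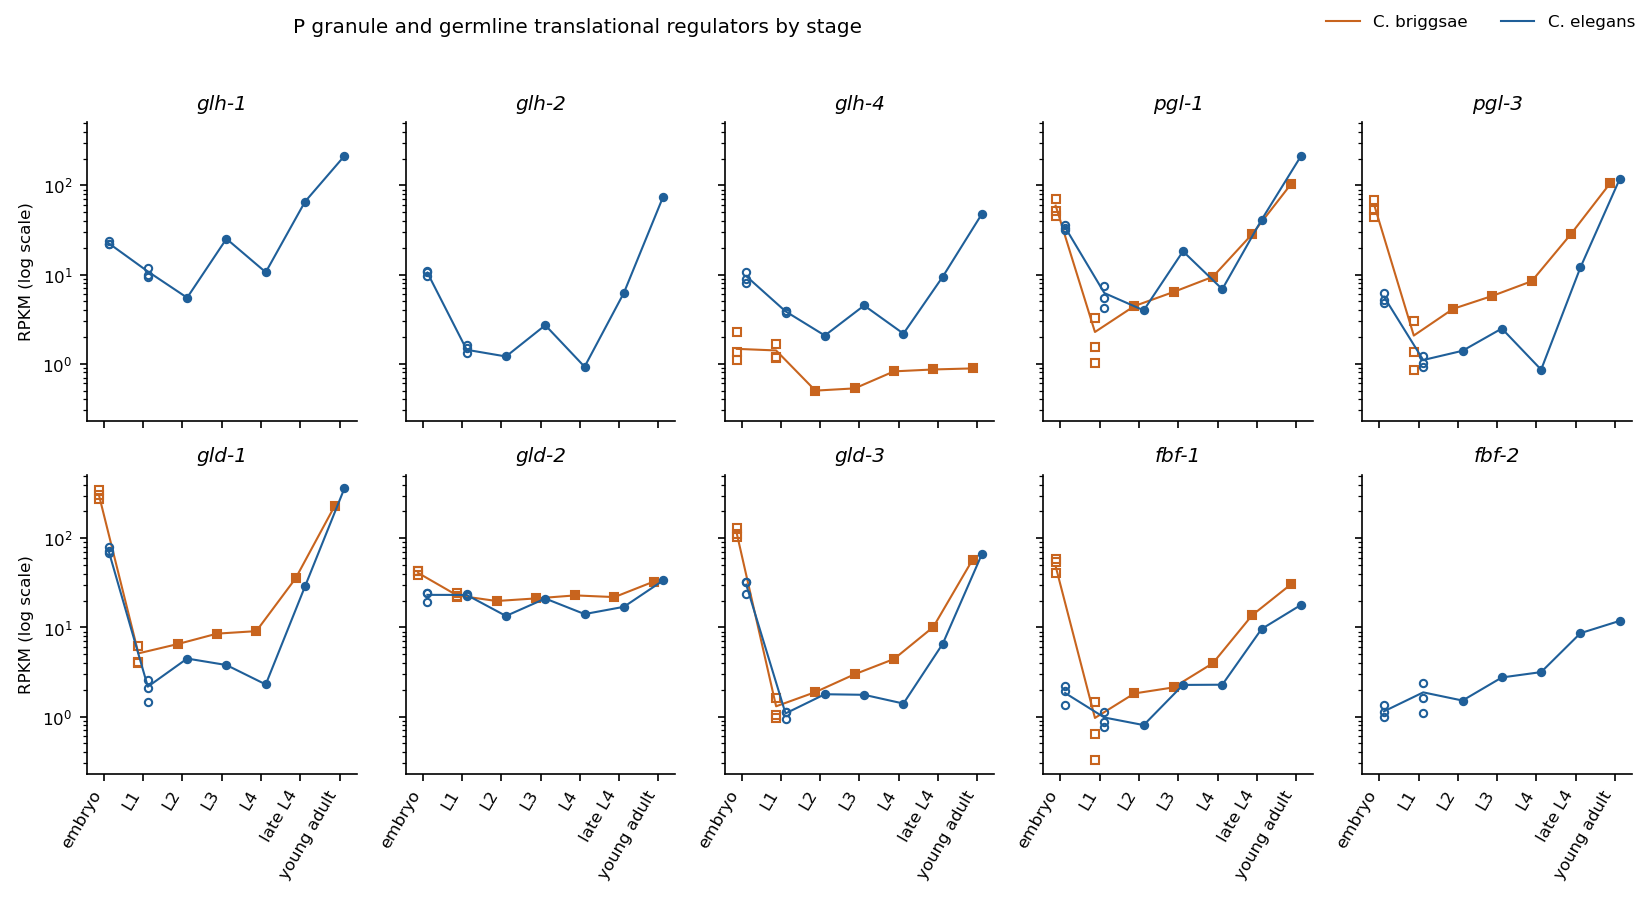
Levels of the 10 genes by stage in C. briggsae (squares) and C. elegans (circles), in RPKM on a log axis. Open symbols are single libraries of embryos and L1 larvae, filled symbols the 1 library of a later stage, and lines join means over cultures. Every gene peaks in young adults in C. elegans, gld-2 is nearly level, and glh-1, glh-2 and fbf-2 have no C. briggsae values.

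The scaffold genes pgl-1 and pgl-3 were abundant in embryos and young adults and scarce in between. In C. briggsae pgl-1 (ZK381.4; chromosome IV, 6974441 to 6977318, minus strand) had 45.3, 51.8 and 70.1 RPKM in embryos, then 1.53, 1.01 and 3.27 RPKM at L1, 4.43 in L2, 6.38 in L3, 9.44 in L4, 28.4 in late L4 and 105 RPKM in young adults. C. elegans libraries had 31.3, 32.9 and 35.7 RPKM in embryos, then 5.50, 4.23 and 7.53 RPKM at L1, 3.97 in L2, 18.2 in L3, 6.86 in L4, 41.2 in late L4 and 213 RPKM in young adults. From L1 onward the C. briggsae values climbed at each step, whereas the C. elegans values went up and down between L2 and L4 before climbing. For pgl-3 (C18G1.4; chromosome V, 4755979 to 4758587, plus strand) C. briggsae had 43.9, 53.6 and 69.1 RPKM in embryos, then 1.35, 0.846 and 3.04 RPKM at L1, 4.13 in L2, 5.77 in L3, 8.42 in L4, 28.5 in late L4 and 106 RPKM in young adults. In C. elegans pgl-3 had 5.24, 4.84 and 6.26 RPKM in embryos, then 1.02, 0.930 and 1.23 RPKM at L1, 1.4 in L2, 2.48 in L3, 0.858 in L4, 12.0 in late L4 and 118 RPKM in young adults. The C. briggsae embryo mean was 10.4 times the C. elegans one for pgl-3 and 1.75 times for pgl-1, while in young adults the ratios were 0.900 and 0.494.

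The C. briggsae values listed for pgl-1 and pgl-3 were nearly the same in every library. Their ratio stayed between 0.968 and 1.20 over 13 C. briggsae libraries, with a median of 1.03, but ran from 1.80 to 8.0 over 13 C. elegans libraries, with a median of 5.40. In C. elegans it was lowest in young adults and highest in L4. Among 7376 IDs that changed at least 4-fold and reached 10 RPKM in C. briggsae, 248 (3.36%) had another ID as near to them as pgl-1 and pgl-3 were to each other. The next nearest ID to pgl-1, F56C9.6, differed by up to 0.95 on the log2 scale. Whether the 2 rows hold 2 C. briggsae genes or share reads or a gene model was not tested, and they are counted below as separate genes.

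**Figure D2:**
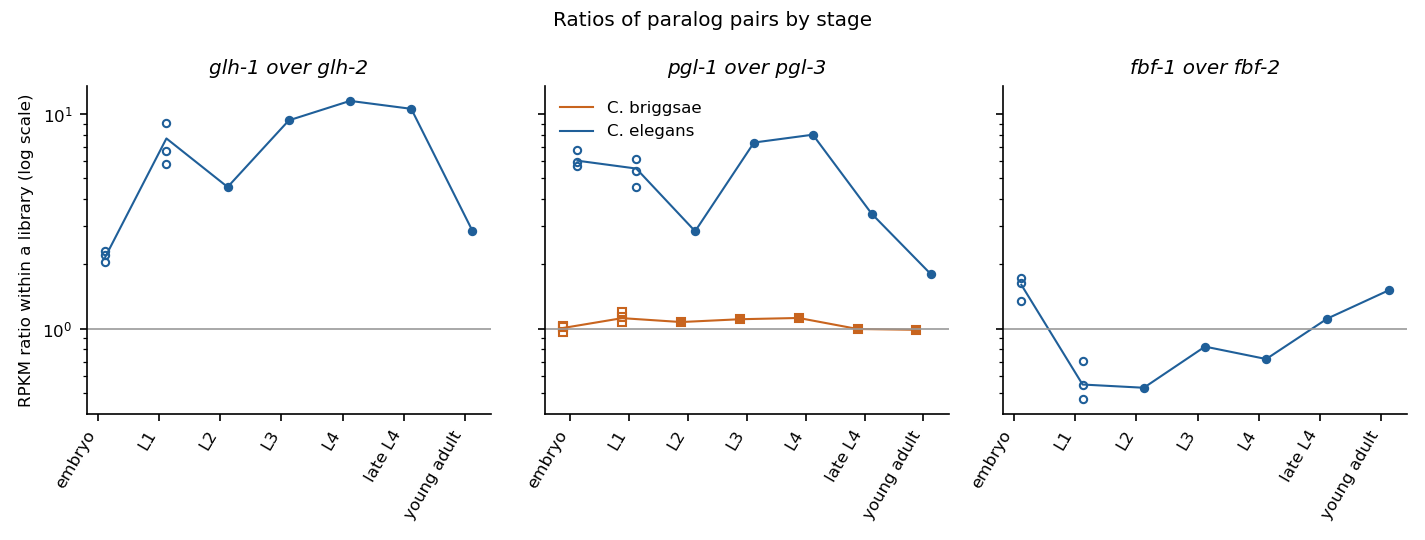
Ratio of RPKM of 3 paralog pairs within each library by stage, on a log axis, in C. briggsae (squares) and C. elegans (circles). Open symbols are single libraries of embryos and L1 larvae, filled symbols 1 library a stage, and lines join means over cultures. The C. briggsae ratio of pgl-1 to pgl-3 stays near 1, and the C. elegans ratio runs between 1.80 and 8.0.

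The translational repressor gld-1 (T23G11.3; chromosome I, 7695681 to 7698222, plus strand) was the most abundant of these transcripts in young adults of both species. In C. briggsae it had 348, 305 and 275 RPKM in embryos, then 4.07, 3.94 and 6.24 RPKM at L1, 6.52 in L2, 8.53 in L3, 9.10 in L4, 35.6 in late L4 and 233 RPKM in young adults. In C. elegans it had 80.5, 68.1 and 71.5 RPKM in embryos, then 2.11, 1.46 and 2.55 RPKM at L1, 4.48 in L2, 3.79 in L3, 2.30 in L4, 28.9 in late L4 and 362 RPKM in young adults. Embryo and young adult libraries were far above all libraries of L1 to L4. Between the highest and lowest stage the difference was 58.7-fold in C. briggsae (embryos over L1) and 167-fold in C. elegans (young adults over L1). The young adult level was 0.776 times the embryo mean in C. briggsae and 4.97 times the embryo mean in C. elegans, so the order of these stages differed between the species.

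The gene for the poly(A) polymerase partner, gld-3 (T07F8.3; chromosome II, 7132643 to 7137522, plus strand), followed a similar course. In C. briggsae it had 112, 132 and 105 RPKM in embryos, then 0.957, 1.03 and 1.62 RPKM at L1, 1.89 in L2, 2.99 in L3, 4.43 in L4, 10.1 in late L4 and 57.7 RPKM in young adults. C. elegans libraries had 23.7, 32.8 and 32.2 RPKM in embryos, then 1.13, 0.945 and 1.14 RPKM at L1, 1.78 in L2, 1.76 in L3, 1.4 in L4, 6.56 in late L4 and 67.0 RPKM in young adults. The young adult level was 0.510 times the embryo mean in C. briggsae and 2.22 times in C. elegans.

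The catalytic subunit gene gld-2 (ZC308.1; chromosome I, 6369748 to 6386194, plus strand) varied least. In C. briggsae it had 42.7, 43.3 and 39.0 RPKM in embryos, then 22.2, 24.3 and 22.5 RPKM at L1, 19.8 in L2, 21.2 in L3, 22.9 in L4, 21.9 in late L4 and 32.7 RPKM in young adults. In C. elegans it had 19.3, 24.3 and 24.7 RPKM in embryos, then 23.1, 22.6 and 23.5 RPKM at L1, 13.5 in L2, 21.1 in L3, 14.1 in L4, 17.1 in late L4 and 33.7 RPKM in young adults. Highest and lowest stage differed by 2.07-fold in C. briggsae and by 2.50-fold in C. elegans. In L1 larvae gld-2 was therefore present at 22.9 RPKM in C. briggsae and 23.2 RPKM in C. elegans, while its partner gld-3 averaged 1.31 and 1.09 RPKM.

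The Pumilio-family gene fbf-1 (H12I13.4; chromosome II, 6078263 to 6080843, minus strand) differed most between the species in embryos. C. briggsae had 58.8, 54.7 and 40.4 RPKM in embryos, then 0.646, 0.327 and 1.45 RPKM at L1, 1.82 in L2, 2.13 in L3, 3.97 in L4, 13.7 in late L4 and 30.8 RPKM in young adults. C. elegans had 1.34, 2.19 and 1.92 RPKM in embryos, then 0.881, 0.771 and 1.13 RPKM at L1, 0.804 in L2, 2.27 in L3, 2.28 in L4, 9.62 in late L4 and 17.9 RPKM in young adults. The embryo mean of C. briggsae was 26.4 times that of C. elegans, while at the other stages the species ratio lay between 0.938 and 2.26. The paralog fbf-2 (F21H12.5; chromosome II, 6088863 to 6091480, minus strand), which begins 8019 bases beyond fbf-1, had 0.996, 1.34 and 1.12 RPKM in C. elegans embryos, 1.62, 1.09 and 2.39 RPKM in L1 larvae, 1.51 in L2, 2.75 in L3, 3.16 in L4, 8.63 in late L4 and 11.9 RPKM in young adults. It was the only one of the 10 genes with its lowest C. elegans level in embryos. The ratio of fbf-1 to fbf-2 was above 1 in the embryo, late L4 and young adult libraries (1.11 to 1.71) and below 1 in those of L1 to L4 (0.472 to 0.825). These genes are near-identical in sequence, and how the authors counted reads that match both is not given in the sources used here, so the split between them is uncertain. Of the pair, fbf-1 alone has C. briggsae values, and how its ortholog was assigned is not given either. Whether the species ratios of fbf-1 compare the same gene was not tested.

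The comparison of fed L1 larvae with embryos asked which transcripts differ across hatching, and it is the only one with 2 cultures of each stage in each species. It was fitted with limma on log2(RPKM + 1), a scale that understates the change of low genes, and p-values were adjusted over all genes tested (Benjamini-Hochberg, threshold 0.05). In C. briggsae 6 of the 7 genes were lower in L1 larvae, where 32.8% of the 11891 genes tested were lower. The largest falls were those of gld-1, at 5.12 ± 1.58 RPKM in L1 larvae, against 300.5 ± 36.4 RPKM in embryos (SD, n = 2 cultures each; log2 difference -5.64 ± 0.25 SE, limma adjusted p = 9.97e-05), and of gld-3, with 1.31 ± 0.441 and 113 ± 12.2 RPKM (-5.64 ± 0.26, adjusted p = 0.000105). The repressor gene fbf-1 fell by 4.68 ± 0.36 on the log2 scale (0.966 ± 0.679 RPKM in L1 larvae, 48.6 ± 11.5 RPKM in embryos), and the differences of the scaffold genes were -4.34 ± 0.40 for pgl-3 and -4.26 ± 0.40 for pgl-1. The poly(A) polymerase gene gld-2 fell less, by 0.81 ± 0.19 (22.9 ± 0.556 RPKM in L1 larvae, 41.0 ± 2.82 RPKM in embryos; adjusted p = 0.00982, but 0.122 under quantile normalization). The helicase gene glh-4 did not pass the test (-0.02 ± 0.24, adjusted p = 0.955), but was at -1.14 with adjusted p = 0.00665 under quantile normalization.

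In C. elegans 7 of the 10 genes were lower in L1 larvae, and 42.6% of the 15277 genes tested were lower. Again gld-1 and gld-3 fell most: gld-1 averaged 2.17 ± 0.545 RPKM in L1 larvae, against 72.9 ± 1.97 RPKM in embryos (log2 difference -4.56 ± 0.24 SE, limma adjusted p = 1.09e-05), and gld-3 had 1.09 ± 0.0712 and 30.2 ± 2.82 RPKM (-3.89 ± 0.25). Next were the P granule genes pgl-1 (-2.31 ± 0.27), glh-2 (-2.24 ± 0.24), pgl-3 (-1.66 ± 0.24), glh-4 (-1.11 ± 0.26) and glh-1 (-1.0 ± 0.23, adjusted p = 0.00642, but 0.0666 under quantile normalization). The genes that did not pass the test were gld-2, with 23.2 ± 0.454 RPKM in L1 larvae and 23.2 ± 2.05 RPKM in embryos (0.00 ± 0.22, adjusted p = 0.987), fbf-1 (-0.52 ± 0.21, adjusted p = 0.0542, but 0.0173 without embryo library A1) and fbf-2 (0.39 ± 0.24, adjusted p = 0.179). The median log2 difference was -4.34 over the 7 genes and 0.14 over all genes tested in C. briggsae, and -1.39 over the 10 genes and -0.33 over all genes in C. elegans. Quantile normalization moved the median of all genes by -0.29 in C. briggsae and 0.27 in C. elegans, and median-ratio scaling by -0.16 and 0.32. With them the numbers of genes called higher and lower moved from 4929 and 3906 to 3897 and 4697 in C. briggsae (quantile) and from 4320 and 6501 to 5727 and 5459 in C. elegans (median-ratio).

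**Figure D3:**
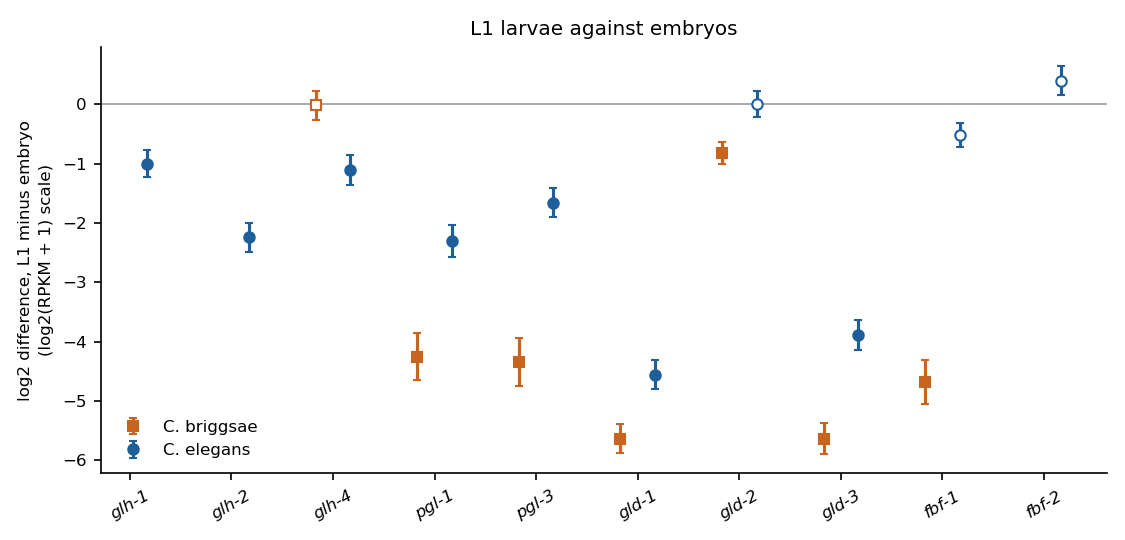
Difference between L1 larvae and embryos for each gene, L1 minus embryo on the log2(RPKM + 1) scale, in C. briggsae (squares) and C. elegans (circles). Bars are standard errors of the limma fit, and filled symbols have an adjusted p under 0.05. In both species gld-1 and gld-3 have the most negative differences, and fbf-1 is at -4.68 in C. briggsae and -0.52 in C. elegans.

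The difference between the species in this change was tested as an interaction over 8 samples, embryos and L1 larvae of cultures A and B in each species. The main fit did not pair the embryo and L1 samples of a culture. All 7 genes with values in both species passed, as did 50.0% of the 12603 genes tested in either direction, so a call in this test did not set these genes apart. The change was more negative in C. briggsae for fbf-1 (-4.17 ± 0.44 SE, adjusted p = 0.000352), pgl-3 (-2.68 ± 0.50, adjusted p = 0.0037) and gld-3 (-1.74 ± 0.34, adjusted p = 0.00422). For these 3 genes the call held under all alternatives tried, though none asked whether C. briggsae pgl-1 and pgl-3 are separate genes. It was also more negative for pgl-1 (-1.95 ± 0.51, adjusted p = 0.0142, but 0.0536 without C. elegans embryo culture A), gld-1 (-1.08 ± 0.34, adjusted p = 0.0307, but -0.89 with adjusted p = 0.0924 under a pseudocount of 0.25) and gld-2 (-0.82 ± 0.25, adjusted p = 0.0264). For glh-4 it was more positive (1.10 ± 0.35, adjusted p = 0.0332), but -0.39 with adjusted p = 0.334 under quantile normalization, and not called under median-ratio scaling (0.63, adjusted p = 0.126), under a pseudocount of 0.25 (adjusted p = 0.0709), without embryo library A1 (adjusted p = 0.0612) or with cultures paired by letter (adjusted p = 0.0724).

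The last 3 calls also depended on single cultures. That of gld-1 was lost without C. briggsae embryo culture A (-0.96, adjusted p = 0.0817) or L1 culture A (-0.82, adjusted p = 0.0897), and without C. elegans embryo culture A (-1.11, adjusted p = 0.0782), embryo culture B (-1.06, adjusted p = 0.0889) or L1 culture B (-0.90, adjusted p = 0.0887). That of gld-2 was lost without C. briggsae embryo culture A (-0.75, adjusted p = 0.0599), L1 culture A (-0.84, adjusted p = 0.0596) or L1 culture B (-0.80, adjusted p = 0.0663), and without C. elegans embryo culture A (-0.73, adjusted p = 0.0808), L1 culture A (-0.84, adjusted p = 0.0571) or L1 culture B (-0.80, adjusted p = 0.0678). That of glh-4 was lost without C. briggsae embryo culture B (0.89, adjusted p = 0.0774), L1 culture A (1.24, adjusted p = 0.0571) or L1 culture B (0.95, adjusted p = 0.108), and without C. elegans embryo culture B (0.95, adjusted p = 0.0993), L1 culture A (1.09, adjusted p = 0.074) or L1 culture B (1.11, adjusted p = 0.0717). The split of all called genes also depended on scaling: 4140 were more positive and 2159 more negative in C. briggsae, against 2700 and 3171 under quantile normalization (which moved the median of all genes by -0.37) and 3139 and 3840 under median-ratio scaling (-0.50).

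Several marker lists of other cells differed between the mixed embryos of the species as well. The summed level of 8 body wall muscle markers was 79.9 to 196 RPKM in C. briggsae embryo libraries and 673 to 819 RPKM in C. elegans embryo libraries, whereas in L1 larvae it was 2246 to 2408 and 2016 to 2372 RPKM. Oocyte markers summed to 1713 to 2076 RPKM in C. briggsae embryos and 222 to 325 RPKM in C. elegans embryos, and meiotic germ cell markers (9 of 12 measured in C. briggsae, all 12 in C. elegans) to 352 to 383 and 152 to 154 RPKM. In L1 larvae the meiotic markers summed to 21.7 to 27.4 RPKM in C. briggsae, where 2 to 4 of the 9 reached 1 RPKM, and to 23.6 to 25.5 RPKM in C. elegans, where 10 of the 12 did. Embryo sums were also lower in C. briggsae for epidermis markers (437 to 900.4 RPKM, against 2706 to 4172 RPKM in C. elegans) and intestine markers (19 to 22.2 RPKM from 7 of 8 measured, against 183 to 270.4 RPKM from 8). Somatic gonad markers summed to 206 to 208 RPKM in C. briggsae (7 of 8 measured) and 242 to 251 RPKM in C. elegans (8). Sums of neuron markers overlapped, at 214 to 310 RPKM in C. briggsae and 245 to 382 RPKM in C. elegans. Gene by gene, 6 of 7 neuron markers were called more positive in C. briggsae in the species difference test, and 0 more negative. Of all genes tested there, 32.8% were more positive. The median species difference was 2.28 for neuron markers and 0.29 over all genes. The part of these marker lists in the differences of fbf-1, pgl-3 and the other genes was not tested.

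**Figure D4:**
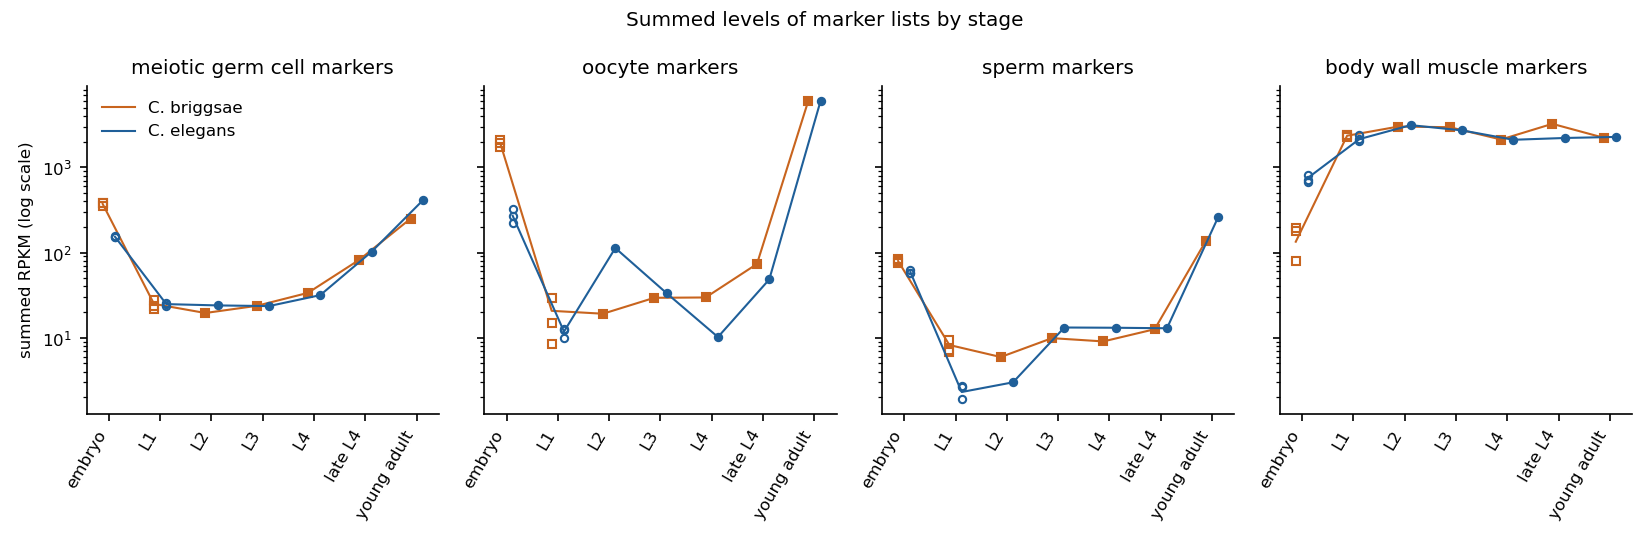
Summed RPKM of marker lists of meiotic germ cells, oocytes, sperm and body wall muscle by stage, on a log axis, in C. briggsae (squares) and C. elegans (circles), with open symbols for single libraries of embryos and L1 larvae and lines through means over cultures. In embryos the oocyte sum is higher and the muscle sum lower in C. briggsae, and all 3 germline sums are highest in young adults in C. elegans.

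Between feeding and the L4 stage the 7 genes with values in both species had no step that passed the test. These steps were fitted on the culture A samples with stage and species as additive terms, so that the species stand in for replicates and opposite changes in them add to the error. For L2 against L1, L3 against L2, L4 against L3 and late L4 against L4 the model called 0 of 12945 genes (0%), with 576, 413, 105 and 251 genes at an unadjusted p under 0.05. Of the members 0 were at an unadjusted p under 0.05 in the first 3 steps and 4 in the step to late L4. In that step the differences were 2.52 ± 0.58 (SE) on the log2 scale for gld-1, 2.23 ± 0.73 for pgl-3, 1.96 ± 0.55 for pgl-1, 1.63 ± 0.96 for fbf-1, 1.35 ± 0.57 for gld-3, 0.88 ± 0.83 for glh-4 and 0.10 ± 0.34 for gld-2, and none passed the adjusted threshold. The late L4 library of C. elegans held 6.20 times as much glh-1, 6.75 times as much glh-2 and 2.73 times as much fbf-2 as its L4 library, with 1 library a stage and no test.

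In the L3 library of C. elegans 5 of the 10 genes were at least 1.5 times as high as in both L2 and L4. They were glh-1, glh-2, glh-4, pgl-1 and pgl-3. The same held for 1004 of 13288 genes (7.56%) that reached 1 RPKM in 2 or more of the 3 libraries. For glh-1 the L3 level was 4.58 times that of L2 and 2.37 times that of L4, and for pgl-1 it was 4.60 and 2.66 times. None of the 5 translational regulator genes met that rule in C. elegans, though gld-2 was just outside it at 1.57 times L2 and 1.49 times L4. The wider list of other germ granule genes summed to 197 RPKM in L2, 253 RPKM in L3 and 221 RPKM in L4. Epidermis markers summed to 773, 4323 and 1413 RPKM in the same libraries, and their part in the values of the 5 genes was not tested. In C. briggsae 0 of the 6 members at that level met it, and 673 of 11344 genes (5.93%) did. Each stage had 1 library here, so the rise has no replicate check.

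In the additive model 5 of the 7 genes were higher in young adults than in L1 larvae, against 10.6% of the 12945 genes tested. The differences were 6.29 ± 0.58 (SE) on the log2 scale for gld-1 (limma adjusted p = 0.000203), 5.80 ± 0.73 for pgl-3, 5.38 ± 0.55 for pgl-1, 4.97 ± 0.57 for gld-3 and 3.90 ± 0.96 for fbf-1 (adjusted p = 0.0185). The call of fbf-1 was lost without the L1 sample of C. briggsae (3.18, adjusted p = 0.133) or of C. elegans (4.62, adjusted p = 0.0572), and without the young adult sample of C. briggsae (4.00, adjusted p = 0.0578) or of C. elegans (3.80, adjusted p = 0.12). Neither glh-4 (1.57 ± 0.83, adjusted p = 0.185, but 3.17 with adjusted p = 0.0121 without the C. briggsae young adult sample) nor gld-2 (0.51 ± 0.34, adjusted p = 0.288) passed. The helicase genes without C. briggsae values were 19.7-fold (glh-1) and 52.3-fold (glh-2) higher in the C. elegans young adult library than in the L1 mean, and fbf-2 was 6.34-fold higher. Under median-ratio scaling the numbers of genes called higher and lower moved to 1789 and 1534, against 1378 and 2064.

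Against late L4, the preceding stage, 3 of the 7 genes were higher in young adults, where 6.60% of all genes tested were. They were gld-1 (3.14 ± 0.58 SE, limma adjusted p = 0.0115), gld-3 (2.78 ± 0.57, adjusted p = 0.018) and pgl-1 (2.1 ± 0.55, adjusted p = 0.0484). No member was called without the late L4 sample of C. briggsae (gld-1 2.83, adjusted p = 0.0981; gld-3 2.76, adjusted p = 0.114; pgl-1 2.06, adjusted p = 0.21), the late L4 sample of C. elegans (gld-1 3.45, adjusted p = 0.0624; gld-3 2.81, adjusted p = 0.132; pgl-1 2.13, adjusted p = 0.242) or the young adult sample of C. elegans (gld-1 2.30, adjusted p = 0.135; gld-3 2.31, adjusted p = 0.19; pgl-1 1.77, adjusted p = 0.344). The call of pgl-1 was lost in 16 of 20 alternatives, among them a pseudocount of 0.25 (adjusted p = 0.0648), no filter (0.0518), median-ratio scaling (0.0508) and leaving out embryo library A1 (0.0527). Without the young adult sample of C. briggsae pgl-1 was at 2.42 with adjusted p = 0.0815, and leaving out either species' L1, L2, L3 or L4 sample kept it at 2.1 with adjusted p between 0.0564 and 0.0672. The genes not called were pgl-3 (2.53 ± 0.73, adjusted p = 0.0667, but 0.022 without the C. briggsae embryo sample and 0.0217 without the C. elegans one), glh-4 (1.13 ± 0.83, but 2.72 with adjusted p = 0.0372 without the C. briggsae young adult sample), fbf-1 (0.97 ± 0.96) and gld-2 (0.75 ± 0.34). In RPKM the step to young adults was 6.56-fold in C. briggsae and 12.52-fold in C. elegans for gld-1, and 2.24-fold and 1.86-fold for fbf-1.

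Against embryos only the scaffold genes were called higher in young adults, 2 of 7, with 10.6% of all genes tested called higher. They were pgl-3 (2.71 ± 0.73 SE, limma adjusted p = 0.0267) and pgl-1 (1.89 ± 0.55, adjusted p = 0.0362). Whether their nearly equal C. briggsae values come from separate genes was not tested. Neither was called without the C. elegans embryo sample (pgl-3 1.65, adjusted p = 0.122; pgl-1 1.29, adjusted p = 0.155) or young adult sample (pgl-3 1.91, adjusted p = 0.182; pgl-1 1.57, adjusted p = 0.189). The call of pgl-1 was also lost without the young adult sample of C. briggsae (2.22, adjusted p = 0.0831) and without the late L4 sample of C. briggsae (1.89, adjusted p = 0.058) or of C. elegans (1.89, adjusted p = 0.0585). The other differences were 0.97 ± 0.96 for fbf-1, 0.90 ± 0.83 for glh-4, 0.90 ± 0.58 for gld-1, 0.12 ± 0.34 for gld-2 and 0.09 ± 0.57 for gld-3. Without the C. briggsae embryo sample fbf-1 was at 2.99 with adjusted p = 0.00266, and without the C. briggsae young adult sample glh-4 was at 2.50 with adjusted p = 0.0347. For the 5 genes not called the species ran opposite ways, so that each pooled difference averages opposite changes. Young adults had 0.635 times the embryo mean of fbf-1 in C. briggsae and 9.71 times in C. elegans, 0.604 and 5.02 times for glh-4, 0.776 and 4.97 times for gld-1, 0.798 and 1.45 times for gld-2, and 0.510 and 2.22 times for gld-3. Under median-ratio scaling 1668 genes were called higher and 943 lower, against 1372 and 1537.

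**Figure D5:**
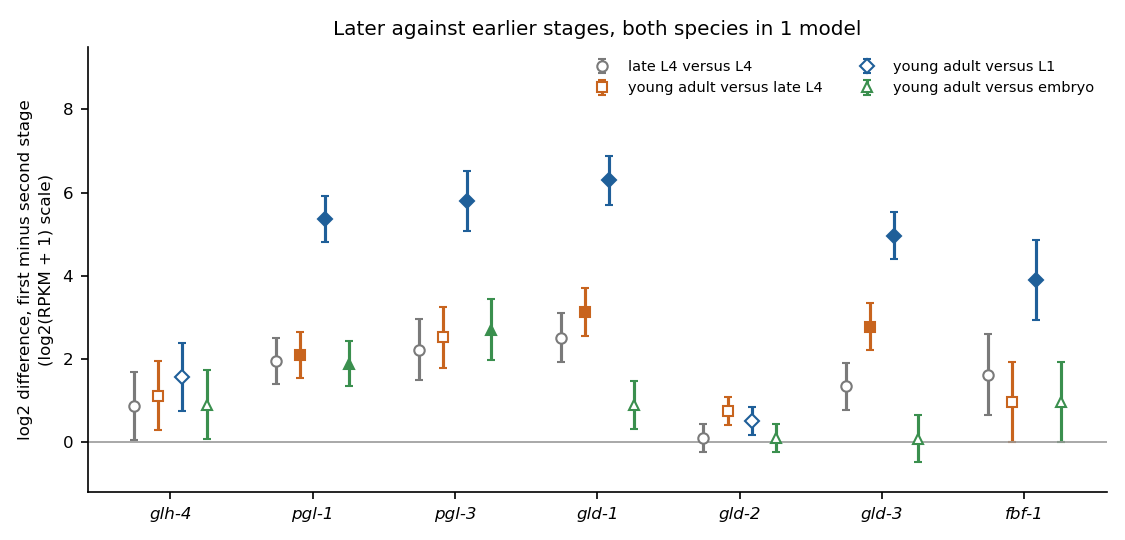
Differences between later and earlier stages for the 7 genes with values in both species, on the log2(RPKM + 1) scale, from the additive model of species and stage. Bars are standard errors, and filled symbols have an adjusted p under 0.05. Young adults against L1 larvae give the largest differences for gld-1, pgl-3, pgl-1, gld-3 and fbf-1, and gld-2 lies within 0.75 of 0 in all 4 comparisons.

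Other germ granule genes moved in the same comparisons. Of 18 measured in C. elegans 16 were lower in L1 larvae than in embryos and 0 higher, where 42.6% of all genes tested were lower, led by meg-1 (-5.15 ± 0.24 SE), pie-1 (-4.23 ± 0.25) and meg-3 (-3.70 ± 0.24), where MEG proteins control the assembly and disassembly of P granules in the embryo and PIE-1 keeps transcription off in the germline lineage. Of 13 measured in C. briggsae 11 were lower and 0 higher, where 32.8% of all genes tested were lower, led by pie-1 (-6.75 ± 0.29), the helicase gene cgh-1 (-4.04 ± 0.26) and deps-1 (-4.03 ± 0.40), needed for P granule assembly. Median log2 differences of this list were -2.26 in C. briggsae and -2.21 in C. elegans. In young adults 11 of 13 were higher than in L1 larvae (10.6% of all genes tested), with pie-1 at 5.84 ± 0.75, the Argonaute gene wago-1 at 4.56 ± 0.61 and cgh-1 at 4.56 ± 0.78, and the median was 3.03 against -0.32 over all genes.

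Other translational regulators of the germline and early embryo fell in L1 larvae in both species. In C. briggsae 20 of 24 were lower in L1 larvae than in embryos and 1 higher (32.8% of all genes tested were lower), led by the zinc-finger gene mex-5 (-9.20 ± 0.40 SE), spn-4 (-7.31 ± 0.28) and the Nanos gene nos-2 (-6.71 ± 0.26). In C. elegans 26 of 29 were lower and 1 higher (42.6% of all genes tested were lower), led by pos-1 (-6.74 ± 0.22), mex-5 (-6.0 ± 0.24) and its close paralog mex-6 (-5.76 ± 0.25). In young adults 19 of 25 were higher than in L1 larvae, as were 10.6% of all genes tested (mex-5 7.99 ± 0.84, puf-5 7.42 ± 0.69, oma-1 7.08 ± 0.43), and 14 of 25 were higher than in late L4, as were 6.60% of all genes tested. The median log2 difference of the list between L1 larvae and embryos was -4.33 in C. briggsae and -3.14 in C. elegans, and between young adults and L1 larvae it was 4.86. The genes puf-5 and oma-1 also stand in the oocyte marker list, and 7 of the 31 listed regulators stand in another list.

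Messages that these proteins are known to bind in C. elegans were also measured. Over all genes tested 32.8% were lower in L1 larvae than in embryos in C. briggsae and 42.6% in C. elegans, and in young adults 10.6% were higher than in L1 larvae and 6.60% higher than in late L4. Of the GLD-1 targets 12 of 14 were lower and 1 higher in L1 larvae than in embryos in C. briggsae, and 14 of 15 were lower and 1 higher in C. elegans. In young adults 11 of 14 GLD-1 targets were higher than in late L4, led by egg-1 (6.24 ± 1.08 SE), puf-5 (6.22 ± 0.69) and the yolk receptor gene rme-2 (6.14 ± 0.82), while gld-1 itself was at 3.14 ± 0.58. The median of the GLD-1 targets in that comparison was 4.22, against -0.12 over all genes. The target list shares 8 of its 15 genes with the oocyte and translational regulator lists. Of the FBF targets 8 of 10 were lower and 2 higher in L1 larvae in C. briggsae, and 8 of 11 were lower and 1 higher in C. elegans, with the cyclin gene cyb-2.1 at -7.0 ± 0.16 and -4.12 ± 0.26. The median of the FBF targets was -3.18 in C. briggsae and -2.23 in C. elegans. In young adults 5 of 10 FBF targets were higher than in late L4, and 7 of 10 were higher than in L1 larvae (htp-2 5.15 ± 0.46, cyb-2.1 5.04 ± 0.88, him-3 4.66 ± 0.92). The chromosome axis gene htp-2 is a near copy of htp-1, and cyb-2.1 of cyb-2.2, so their split of reads is uncertain.

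Germ cell markers were measured beside these genes. Against L1 larvae 9 of 9 meiotic, 12 of 12 oocyte and 5 of 8 sperm markers measured in both species were higher in young adults, as were 10.6% of all genes tested. Against late L4 it was 2 of 9 meiotic, 12 of 12 oocyte and 3 of 8 sperm markers, and 6.60% of all genes. The meiotic markers summed to 250 RPKM in C. briggsae young adults and 82.1 RPKM in late L4, and to 410 and 102 RPKM in C. elegans. The oocyte sum was 6017 RPKM in C. briggsae young adults and 73.4 RPKM in late L4, and 6011 and 48.4 RPKM in C. elegans. Sperm markers (8 of 12 measured in C. briggsae, all 12 in C. elegans) summed to 138 RPKM in C. briggsae young adults and 12.6 RPKM in late L4, and to 262 and 12.9 RPKM in C. elegans. The part of a larger germline in the rise of the 10 genes was not tested.

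Profiles were compared as Pearson correlations of log2(RPKM + 1) over culture A of the 7 stages, as a description. Between the species r over 7 stages was 0.94 for gld-1 and for gld-3, 0.91 for pgl-1, 0.85 for pgl-3, 0.60 for fbf-1, 0.58 for gld-2 and 0.27 for glh-4. Over 14 samples centred within species, among 5268 ortholog pairs with a range of at least 2 in both species, the profile of gld-1 was most like those of the synaptonemal complex gene syp-2 (0.991), ani-2 (0.988) and B0238.9 (0.988). The profile of pgl-1 was most like those of daz-1 (0.978), which encodes a germline RNA-binding protein, sdha-2 (0.976) and C46A5.6 (0.970). That of fbf-1 was most like those of the Argonaute gene ppw-2 (0.971), Y111B2A.1 (0.969) and zhp-1 (0.967). These samples share the libraries and their stage order, and the high embryo and young adult values weigh on each r.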

How the data were processed

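The authors deposited RPKM values for 26 libraries, with C. briggsae values under C. elegans ortholog IDs. The submitters' processing notes name BWA 0.5.7. The genome build, gene models, counting, handling of multiply mapped reads and source of orthologs were not given in the sources used here. From fits on C. briggsae 125 IDs were dropped because their values were copies of another ID's, which left 13813 pairs. Gene positions are those of C. elegans, looked up by sequence name in Ensembl 115 (WBcel235).

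A1 and A2 were averaged on log2(RPKM + 1), and genes that reached 1 RPKM in 2 or more compared samples were tested with limma 3.58.1 under R 4.3.3 (eBayes, trend), with Benjamini-Hochberg adjustment over all genes tested and a threshold of 0.05. All members with values passed that filter in each comparison. L1 larvae against embryos used 4 samples in each species, the species difference 8, and the additive model of species and stage 14. The fits of L1 larvae against embryos in C. elegans and of young adults against L1 larvae were also run on simulated data. Both species had the same mean levels and the same changes there, so that check does not cover species that run opposite ways. The labels call A and B separate time courses; culture differences of embryos and L1 larvae correlated at -0.011 in C. elegans and 0.20 in C. briggsae over genes. P-values of the L1 against embryo and species difference fits measure the spread between cultures A and B. The additive model has 1 sample a species and stage, so its p-values measure how unlike the species are in their stage changes. Alternatives were a pseudocount of 0.25, no filter, quantile normalization, median-ratio scaling, leaving out samples or embryo library A1, adding culture B and pairing cultures. The members, lists and tests were chosen with earlier results of these data known. All members were named, with the up to 3 largest called differences of each list. The 3 most similar profiles were sought for glh-1, pgl-1, gld-1 and fbf-1 only, and those of glh-1 were not computed for want of C. briggsae values. Lists held textbook genes, of which ife-1, ntl-1 and unc-17 were not matched by symbol. Python 3.11.15, numpy 2.4.6, pandas 2.3.3 and matplotlib 3.10.9 were used for tables and figures.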

Additional observations from a re-analysis of the deposited data

Results flagged for a closer look

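The change between L1 larvae and embryos differed between the species for all 7 genes with values in both, by the limma interaction test over 8 samples. The difference, C. briggsae minus C. elegans on the log2 scale, was -4.17 for fbf-1, -2.68 for pgl-3, -1.95 for pgl-1, -1.74 for gld-3, -1.08 for gld-1, -0.82 for gld-2 and 1.10 for glh-4. The calls of fbf-1, pgl-3 and gld-3 held under all 14 alternatives, that of pgl-1 was lost in 1, those of gld-1 and gld-2 in 6 each, and that of glh-4 in 10, with a further 1 (quantile normalization) turning it to -0.39. Of all 12603 genes tested, 50.0% passed the same test. No alternative addressed how orthologs were assigned, or whether the nearly equal C. briggsae values of pgl-1 and pgl-3 come from separate genes.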

How the results depend on the processing

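Of 30 member values past the threshold, 18 kept their call and direction under every alternative tried. Over 52 member values and all alternatives, 744 of 828 results kept direction and side of the threshold, 58 lost a call, 10 gained one and 16 changed sign, of which 1 was a called value, that of glh-4 in the species difference (-0.39, quantile normalization). Without embryo library A1 the uncalled difference of gld-2 between C. elegans L1 larvae and embryos was -0.076 and that of gld-3 between young adults and embryos -0.085. Under quantile normalization glh-4 in C. briggsae L1 larvae against embryos, not called otherwise, was at -1.14 (adjusted p = 0.00665). Leaving out 1 sample at a time, where a lone sample is assumed to vary like the others, uncalled differences ran from -0.087 to 0.095 for gld-2 and from -0.22 to 0.19 for glh-4 (L1 against embryo in C. elegans and in C. briggsae), from -0.082 to 0.28 for gld-2 (late L4 against L4), and for glh-4 from -0.47 to 2.72 (young adult against late L4), -0.021 to 3.17 (against L1) and -0.69 to 2.50 (against embryo). Against embryos the ranges were -0.24 to 0.47 for gld-2, -0.78 to 0.96 for gld-3 and -1.06 to 2.99 for fbf-1.

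With 1 sample left out at a time, members called ran from 4 to 6 in the species difference (7 with all samples), 0 to 4 in young adults against late L4 and 0 to 3 in young adults against embryos. Genes called ran, likewise with 1 sample left out, from 5122 to 8690 in L1 larvae against embryos of C. briggsae, 0 to 8 in L2 against L1, 0 to 5 in L4 against L3, 0 to 9 in late L4 against L4, and, for young adults, 272 to 2328 against late L4, 768 to 4993 against L1 and 1488 to 3544 against embryos. With culture B added 26 genes were called in L2 against L1, 3 in late L4 against L4, 1671 in young adults against late L4 and 4398 in young adults against embryos. With the replicate block, which pairs cultures by letter, 10769 genes were called in C. elegans, 9053 in C. briggsae and 6066 in the species difference, and 1 member call changed, that of glh-4 in the species difference (adjusted p = 0.0724). The cause of these changes was not tested. Values near 1 RPKM, such as those of fbf-1, gld-3 and C. elegans pgl-3 in L1 larvae, rest on few reads, and stages after L1 have 1 library a species.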

Other observations

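The mixture of all stages, which enters no comparison, had 2 libraries of the same sample in each species. In C. briggsae it held 156 and 131 RPKM of gld-1, 51.6 and 63.7 RPKM of pgl-1, 51.4 and 65.2 RPKM of pgl-3, 45.8 and 55.5 RPKM of gld-3, 33.3 and 37.3 RPKM of gld-2, 28.5 and 21.8 RPKM of fbf-1 and 1.09 and 0.798 RPKM of glh-4. In C. elegans it held 160.3 and 113 RPKM of gld-1, 93.0 and 78.9 RPKM of glh-1, 87.0 and 78.9 RPKM of pgl-1, 60.5 and 67.8 RPKM of gld-3, 42.5 and 33.9 RPKM of pgl-3, 36.3 and 32.3 RPKM of glh-2, 21.2 and 19.1 RPKM of gld-2, 19.9 and 18.1 RPKM of glh-4, 7.46 and 6.38 RPKM of fbf-1 and 5.87 and 5.51 RPKM of fbf-2. In the mixture fbf-1 was 3.63 times as high in C. briggsae as in C. elegans and glh-4 was 0.0498 times as high.

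The remaining GLH helicase gene, glh-3, is not among the 10 genes and was looked up after the C. briggsae values of glh-4 were seen. In C. briggsae glh-3 had 61.3, 59.3 and 84.9 RPKM in embryo libraries A1, A2 and B, 8.06, 3.85 and 20.4 RPKM in L1 libraries, 103 RPKM in late L4 and 277 RPKM in young adults. In C. elegans it had 7.41, 9.26 and 10.3 RPKM in embryo libraries, 1.02, 1.05 and 0.993 RPKM in L1 libraries, 4.23 RPKM in late L4 and 18.7 RPKM in young adults. Of the GLH genes only glh-3 and glh-4 had C. briggsae values, so no rank against glh-1 or glh-2 can be given there. The C. briggsae young adult library held more glh-3 than glh-4 (0.886 RPKM). In C. elegans young adults glh-1 was the highest of the GLH genes (214 RPKM). Young adults had more glh-3 than L1 larvae in the additive model (4.33 ± 0.57 SE on the log2 scale, limma adjusted p = 0.00121).

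In L1 larvae pgl-1, pgl-3 and fbf-1 spread more between C. briggsae libraries than other members did, with 3.23-fold, 3.59-fold and 4.43-fold between the highest and lowest library, against 1.09-fold for gld-2. Library B was the highest for gld-3 too, but not for gld-2. For each of the 3 genes, and also for gld-1 and glh-4, library B was the highest and A2 the lowest. Oocyte markers had the same order in these libraries, summing to 15.1 RPKM in A1, 8.5 RPKM in A2 and 29.6 RPKM in B, with 5, 4 and 10 of the 12 at 1 RPKM or more, and their part in the spread was not tested.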
